A study of Mus musculus with 61 samples.

Results

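De novo lipogenesis, the making of fatty acids from sugar-derived carbon, was followed through 10 genes in adipose RNA of 8 mouse strains. The genes were Fasn, Acly, Acaca, Acacb, Elovl6, Thrsp, Me1, Mlxipl, Srebf1 and Pnpla3, taken by symbol from a table of 21169 genes. Each symbol matched 1 row, and all 10 genes passed the filter on low counts that left 18603 genes for testing. The 61 libraries came from 3 wild-derived strains, Cast (7 libraries), PWK (8) and WSB (8), and from 5 classical strains, 129 (7), AJ (7), B6 (8), NOD (8) and NZO (8). The Diversity Outbred mouse population descends from these strains. All groups were fed the same high-fat, high-sugar diet, given in the labels as 45 percent fat, and there was no group on another diet. Messenger RNA had been selected by its poly(A) tail. The labels do not give the fat depot, the sex or age of the mice, or a batch, and they do not say whether the libraries of a strain came from separate animals, so p-values measure the spread between these samples, which may be technical.

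In the lipogenic pathway, ATP-citrate lyase (Acly) splits cytosolic citrate into acetyl-CoA, acetyl-CoA carboxylase (Acaca, and the mitochondria-bound form Acacb) makes malonyl-CoA, and fatty acid synthase (Fasn) builds palmitate from both, using NADPH that malic enzyme (Me1) helps to supply. Elovl6 then lengthens palmitate to stearate. The pathway is driven at the level of transcription by SREBP-1, encoded by Srebf1 and known for its response to insulin, and by ChREBP, encoded by Mlxipl and known for its response to sugar; Thrsp (Spot 14) is a thyroid hormone-responsive lipogenic protein, and Pnpla3 is a lipid droplet protein whose transcript is a known target of both factors. In mouse fat the pathway is active in white and brown adipocytes, and high-fat feeding is known to lower it.

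Because most of the genes rose or fell in the same strains, their start sites were read from RefSeq promoter windows on build GRCm38.p6, which run from 250 bases before to 50 bases after each annotated start. All 10 genes matched, with 14 windows in total. The only windows of Acaca (from 84195188 on chromosome 11) and Acacb (from 114165268 on chromosome 5) lay inside the genes. Their deposited gene starts, at 84129672 and 114146535, were not covered by a window, so the sequence around them was not searched. Both strands were searched for CCAAT (the NF-Y box), GGGCGG (the GC box), CACGTG (an E-box) and TCACNCCAC (a sterol regulatory element). CCAAT was present in 9 of the 14 windows, from 8 of the 10 genes, against 37.4% of all 32851 windows. GGGCGG was present in 6 windows from 5 genes, against 35.7% of all windows. A match is a run of letters and not a binding site. The windows of Fasn and Thrsp are shown because each carries CCAAT on both strands close to the start, and both Mlxipl windows are shown because CACGTG (7.15% of all windows) and TCACNCCAC (1.24%) were each found in 1 window of the 14, and both were windows of Mlxipl. Capitals mark the matches, in either orientation, and every sequence reads 5′ to 3′ on the strand of its gene.
Fasn, chr11:120824498-120824797, minus strand: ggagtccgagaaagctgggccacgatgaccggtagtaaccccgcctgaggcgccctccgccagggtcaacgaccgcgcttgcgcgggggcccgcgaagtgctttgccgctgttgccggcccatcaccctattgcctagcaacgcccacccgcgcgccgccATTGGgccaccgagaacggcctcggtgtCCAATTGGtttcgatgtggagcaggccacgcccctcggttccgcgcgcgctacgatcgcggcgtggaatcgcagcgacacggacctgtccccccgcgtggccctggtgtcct
Thrsp, chr7:97417501-97417800, minus strand: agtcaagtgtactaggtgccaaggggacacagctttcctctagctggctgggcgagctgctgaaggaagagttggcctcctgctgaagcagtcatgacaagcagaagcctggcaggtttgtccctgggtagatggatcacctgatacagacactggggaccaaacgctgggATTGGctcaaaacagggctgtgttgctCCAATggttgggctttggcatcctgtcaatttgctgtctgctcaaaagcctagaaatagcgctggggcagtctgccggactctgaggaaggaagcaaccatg
Mlxipl upstream start, chr5:135089640-135089939, plus strand: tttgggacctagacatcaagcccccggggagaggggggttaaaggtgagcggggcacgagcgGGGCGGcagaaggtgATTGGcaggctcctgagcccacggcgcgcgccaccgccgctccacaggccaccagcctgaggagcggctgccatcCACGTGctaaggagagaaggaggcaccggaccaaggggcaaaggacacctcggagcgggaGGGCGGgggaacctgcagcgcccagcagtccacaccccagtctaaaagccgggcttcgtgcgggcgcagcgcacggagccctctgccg
Mlxipl downstream start, chr5:135106641-135106940, plus strand: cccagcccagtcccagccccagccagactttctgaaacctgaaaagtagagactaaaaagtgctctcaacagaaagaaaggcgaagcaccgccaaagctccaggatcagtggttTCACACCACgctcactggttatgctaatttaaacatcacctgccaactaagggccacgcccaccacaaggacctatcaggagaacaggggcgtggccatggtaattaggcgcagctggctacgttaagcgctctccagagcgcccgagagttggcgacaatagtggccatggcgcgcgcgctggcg
In Fasn the CCAAT letters begin at positions -90, -62 and -59 from the start, the last pair sharing bases as CCAATTGG. In Thrsp they begin at -79 and -52. Mlxipl is known to use alternative first exons, the upstream one for the shorter ChREBP-beta protein, and CACGTG lay at -98 in the upstream window (the letters read the same on both strands, so this is 1 place). TCACNCCAC lay at -136 in the downstream window. Gene counts merge the transcripts of both starts, so the values below do not tell them apart.

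Library totals ran from 19851580 to 61277576 counts with a median of 38657683, and no 2 libraries of a strain were identical. All 10 adipocyte markers on the list used (among them Adipoq, Plin1 and Cidec) were detected in every library, with summed levels of 12030 to 34790 CPM (the count relative to the library's total count). The lowest adipocyte sum belonged to Cast replicate 5. Markers of other tissues were high in some libraries: liver markers passed 500 CPM in 6, genital duct markers 300 CPM in 6 and skeletal muscle markers 300 CPM in 4. Xist, a noncoding RNA of the X chromosome, was under 10 CPM or over 300 CPM in every library except Cast replicate 8, at 52.8 CPM, and each strain held libraries of both kinds. All libraries rich in genital duct markers had Xist under 10 CPM, among them every such library of 129. All libraries rich in muscle markers had Xist over 300 CPM. Leaving out either set therefore also shifts the balance of these 2 kinds of library.

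**Figure D1:**
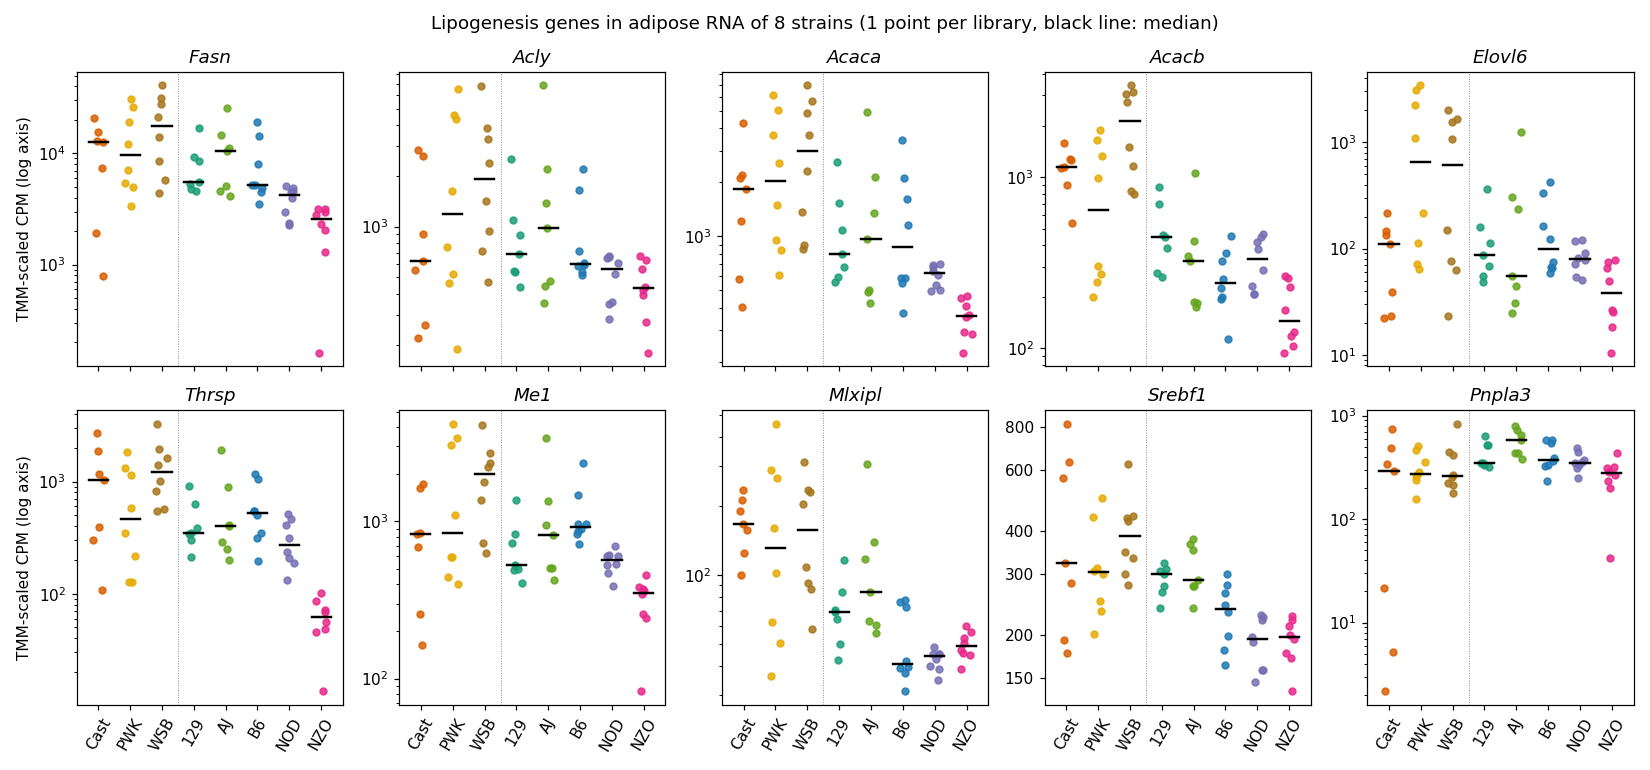
TMM-scaled CPM on a log axis (vertical) by strain (horizontal) for the 10 genes, with 1 point per library, a black line at the strain median, and wild-derived strains left of the dotted line. NZO points lie low for Fasn (161 to 3190 CPM) and Thrsp (13.5 to 102 CPM), PWK and WSB split into a high and a low set of libraries for Elovl6, and strain medians of Pnpla3 lie between 261 and 576 CPM.

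Strain differences were called for 9 of the 10 genes by edgeR's quasi-likelihood F-test (adjusted p under 0.05), where 89.9% of all genes tested were called, so the count is close to the background. Strain accounted for 67.5% of the variance in log2 CPM of Acacb, the largest share of the 10 genes, and for 25.7% of that of Acly, the smallest, beside a median of 48.7% over all genes. Pnpla3 was not called (31.4% of variance between strains, adjusted p = 0.41). In whole tissue, fewer cells of a type and less RNA per cell cannot be told apart. Per kb of exon, Fasn was the most abundant transcript of the set, at 867.5 CPM per kb as the mean of the strain means, followed by Thrsp (298.4), Me1 (273.4), Acly (252.6), Pnpla3 (241.4), Acaca (93.3), Acacb (73.9), Elovl6 (56.6), Srebf1 (52.4) and Mlxipl (19.1 CPM per kb).

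Fasn, the enzyme that assembles palmitate, spanned 161 CPM in NZO replicate 8 to 41050 CPM in WSB replicate 9. Among wild-derived strains it ran from 794 to 20700 CPM (median 12600) in Cast, from 3340 to 30900 CPM (median 9580) in PWK and from 4400 to 41100 CPM (median 17500) in WSB. Among classical strains it ran from 4600 to 16900 CPM (median 5520) in 129, from 4100 to 25500 CPM (median 10600) in AJ, from 3520 to 19100 CPM (median 5210) in B6, from 2260 to 5060 CPM (median 4240) in NOD and from 161 to 3190 CPM (median 2540) in NZO. Every NZO library lay below the lowest library of each other strain except Cast and NOD, and the wild-derived and classical ranges overlapped. Fasn fell in NZO (log2 fold change -2.09 ± 0.46 SE, adjusted p = 0.000113) and NOD (-1.20 ± 0.42, adjusted p = 0.0284) and rose in WSB (1.46 ± 0.34, adjusted p = 0.000318) and PWK (0.89 ± 0.36, adjusted p = 0.0366), each against the mean of the other 7 strains. Without PWK replicate 1, 2 or 7 the PWK value was 0.80, 0.60 or 0.69 and no longer called, and without NOD replicate 1, 2 or 4 the NOD value was -1.12, -1.12 or -1.16 and no longer called.

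Acly, which supplies cytosolic acetyl-CoA, and Me1, a source of NADPH, were both highest in WSB and lowest in NZO by their medians. Median Acly was 1910 CPM in WSB and 1190 CPM in PWK at the top, and 431 CPM in NZO (179 to 668 CPM) at the bottom. PWK libraries spanned 34.7-fold for Acly, from 189 to 6550 CPM, whereas NOD libraries spanned 2.36-fold. Acly rose in WSB (1.31 ± 0.40) and PWK (1.24 ± 0.40) and fell in NZO (-1.52 ± 0.50) and NOD (-1.29 ± 0.49, adjusted p = 0.0445). The NOD call for Acly ended, at values of -1.16 to -1.35, when any 1 of 15 libraries was left out, all 8 NOD libraries among them, the WSB call without WSB replicate 9 (0.90) and the PWK call without PWK replicate 2 (0.82). Me1 had medians of 2010 CPM in WSB, 843 CPM in PWK and 826 CPM in Cast, against 924 CPM in B6, 826 CPM in AJ, 570 CPM in NOD, 525 CPM in 129 and 353 CPM in NZO (83.3 to 459 CPM). It rose in WSB (1.29 ± 0.30, 8 of 8 libraries above the median of the others) and PWK (1.06 ± 0.31) and fell in NZO (-1.76 ± 0.39, 0 of 8 libraries above that median). The PWK call for Me1 ended without PWK replicate 2 (0.72). Without the libraries rich in liver markers, among them PWK replicates 2, 4 and 7, the PWK values of Acly (0.57), Me1 (0.47) and also Fasn (0.36) were no longer called. Replicates 2 and 7 were the 2 highest PWK libraries for each of the 7 genes called in PWK. Liver markers and the loss of these high libraries thus cannot be told apart in that fit. Estimates of Me1 were not whole numbers in 62.3% of libraries and those of Acaca in 60.7%, as happens where a counting tool divides reads between similar sequences, so both genes' levels are uncertain.

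The carboxylase pair differed in how the strains ranked. Acaca, the cytosolic form that feeds Fasn, had medians of 3000 CPM in WSB (856 to 6970 CPM), 2030 CPM in PWK and 1830 CPM in Cast. In the classical strains its medians were 963 CPM in AJ, 874 CPM in B6, 803 CPM in 129, 626 CPM in NOD (500 to 699 CPM) and 361 CPM in NZO (225 to 464 CPM). NZO and NOD were thus the lowest and also the least variable strains, and every NZO library was below every NOD library. Acacb, whose product malonyl-CoA restrains fatty acid entry into mitochondria through Cpt1, ran from 541 to 1580 CPM (median 1140) in Cast, from 199 to 1890 CPM (median 643) in PWK and from 800 to 3440 CPM (median 2120) in WSB. It ran from 260 to 881 CPM in 129, from 174 to 1050 CPM in AJ, from 114 to 456 CPM in B6, from 207 to 466 CPM in NOD and from 94.5 to 263 CPM in NZO. All Cast and WSB libraries exceeded all B6, NOD and NZO libraries for Acacb. Acacb rose in WSB (2.28 ± 0.25, adjusted p = 5.2e-11, 8 of 8 libraries), Cast (1.25 ± 0.28, adjusted p = 0.000153, 7 of 7) and PWK (0.82 ± 0.28) and fell in NZO (-1.86 ± 0.35) and B6 (-1.11 ± 0.33). Its PWK call ended without PWK replicate 1 (0.70), 2 (0.54) or 7 (0.61), and the B6 call without the libraries rich in genital duct markers (-1.01, adjusted p = 0.0524). Acaca rose in WSB (1.56 ± 0.33) and PWK (1.20 ± 0.34) and fell in NZO (-2.13 ± 0.44) and NOD (-1.25 ± 0.41), while its Cast value was 0.55 (adjusted p = 0.207). Without the libraries rich in liver markers the PWK calls of Acaca (0.69, adjusted p = 0.183) and Acacb (0.31, adjusted p = 0.51) ended.

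The within-library balance of the pair, log2 Acacb minus log2 Acaca, averaged -0.39 ± 0.83 in Cast (SD, n = 7), -0.51 ± 0.47 in WSB and -1.71 ± 0.29 in PWK, against -0.94 ± 0.42 in NOD, -1.12 ± 0.39 in 129, -1.15 ± 0.84 in NZO, -1.75 ± 0.43 in AJ and -2.02 ± 0.64 in B6. It differed among strains (F = 8.17, p = 1e-05 from 100000 permutations of the strain labels, 2-sided, the smallest value they can give). PWK thus lay with AJ and B6 in this balance and not with the other wild-derived strains.

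Elovl6, the elongase that acts on palmitate, had the widest range of the 10 genes within PWK, WSB, AJ and 129, though not within the other 4 strains. In WSB it ran from 23.5 to 2010 CPM (median 607), an 85.7-fold spread, and in PWK from 64.8 to 3430 CPM (median 653), a 53-fold spread. In Cast it ran from 22.3 to 215 CPM (median 110), in 129 from 48.1 to 363 CPM, in AJ from 24.7 to 1250 CPM, in B6 from 59.3 to 427 CPM, in NOD from 50.3 to 120 CPM and in NZO from 10.5 to 78.1 CPM (median 38.2). PWK replicates 1, 2, 6 and 7 held 2238, 3433, 1089 and 3111 CPM and the other 4 PWK libraries 64.8 to 218 CPM; WSB replicates 1, 3, 4 and 9 held 1536, 1063, 1662 and 2010 CPM and the other 4 WSB libraries 23.5 to 150 CPM. These 8 libraries were also the PWK and WSB libraries with Xist over 300 CPM and with summed brown adipocyte markers of 773 to 2034 CPM, against at most 122 CPM in the other 8. Cast replicates 1, 2 and 3 also had Xist over 300 CPM, with brown adipocyte sums of 587 to 2010 CPM. They held 134.5 to 215.3 CPM of Elovl6, above the other Cast libraries but far below those 8. Elovl6 rose in PWK (3.10 ± 0.46, adjusted p = 1.4e-07, 6 of 8 libraries) and WSB (2.36 ± 0.48, adjusted p = 4.81e-05, 5 of 8 libraries) and fell in NZO (-2.48 ± 0.70, adjusted p = 0.00255). Cast was lower than both other wild-derived strains, by -3.71 ± 0.89 against PWK (adjusted p = 0.000529) and by -3.06 ± 0.86 against WSB (adjusted p = 0.00329). With the log2 brown adipocyte marker sum as a covariate the PWK value was 1.98 (adjusted p = 1.52e-08) and the WSB value 0.50 (adjusted p = 0.222), and the part of these markers in the result was not tested further.

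Thrsp, the Spot 14 gene, marked NZO most clearly. NZO libraries held 13.5 to 102 CPM (median 62.5), and the other strains' medians were 1030 CPM in Cast, 466 CPM in PWK, 1210 CPM in WSB, 345 CPM in 129, 403 CPM in AJ, 525 CPM in B6 and 273 CPM in NOD. Outside NZO the lowest library was Cast replicate 5 at 109 CPM, so no NZO library overlapped any library of another strain. Thrsp fell in NZO (-3.43 ± 0.51, adjusted p = 1.11e-07) and rose in WSB (1.73 ± 0.34, 8 of 8 libraries) and Cast (1.31 ± 0.37, adjusted p = 0.00201). Its Cast call ended without Cast replicate 7 (0.89), and limma on the deposited log2 values did not call Thrsp in Cast. Mid1ip1, the paralog of Thrsp whose product activates acetyl-CoA carboxylase, averaged 44.3 CPM in NZO against 53.2 CPM in the other strains (-0.23, adjusted p = 0.249) and was called in 1 of the 9 contrasts, higher in AJ (0.74 ± 0.16, adjusted p = 0.000525).

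Of the 2 transcription factor genes, Mlxipl separated wild-derived from classical strains by more than Srebf1 did. Mlxipl had medians of 167 CPM in Cast (99.5 to 236 CPM), 131 CPM in PWK (36.2 to 457 CPM) and 157 CPM in WSB (57.9 to 312 CPM). Its medians were 68.8 CPM in 129, 84.2 CPM in AJ, 41 CPM in B6, 44.2 CPM in NOD and 48.9 CPM in NZO, and every Cast library was above every B6, NOD and NZO library. Mlxipl rose in PWK (1.11 ± 0.24), Cast (1.03 ± 0.25, 7 of 7 libraries) and WSB (0.99 ± 0.24) and fell in NOD (-1.25 ± 0.29), NZO (-0.99 ± 0.29) and B6 (-0.92 ± 0.28). The B6 call ended without the libraries rich in genital duct markers (-0.80, adjusted p = 0.0818), and the PWK call without those rich in liver markers (0.55, adjusted p = 0.127). Srebf1 had medians of 323 CPM in Cast (178 to 816 CPM), 304 CPM in PWK, 387 CPM in WSB, 301 CPM in 129, 289 CPM in AJ, 239 CPM in B6, 195 CPM in NOD and 197 CPM in NZO. It rose in Cast (0.68 ± 0.15, adjusted p = 0.000148, 5 of 7 libraries) and WSB (0.56 ± 0.15, 8 of 8) and fell in NOD (-0.65 ± 0.16) and NZO (-0.64 ± 0.16). Cast was the most spread strain for Srebf1: replicates 6, 7 and 8 held 567.6, 816.2 and 633 CPM and the other 4 held 178 to 323 CPM.

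Pnpla3, the lipid droplet gene, did not follow the other 9 in the strain contrasts. Medians were 294 CPM in Cast, 276 CPM in PWK, 261 CPM in WSB, 349 CPM in 129, 576 CPM in AJ, 376 CPM in B6, 349 CPM in NOD and 276 CPM in NZO. By edgeR it was called in 0 of 9 contrasts (0 also at an unadjusted p under 0.05, and 0 by DESeq2) and in 0 of 28 strain pairs (1 at an unadjusted p under 0.05, AJ above NZO). Its values were highest in AJ (0.74 ± 0.37) and lowest in NZO (-0.54 ± 0.39, adjusted p = 0.244). Limma on the deposited log2 values called it in 2 contrasts, lower in Cast (-2.05, adjusted p = 0.000102) and in wild-derived strains (-0.90, adjusted p = 0.00689). Its spread lay within Cast, where replicates 5, 6 and 1 held 2.17, 5.18 and 21.5 CPM and the other 4 libraries 294 to 750 CPM, a 345-fold range. Cast replicates 5 and 6 were also the lowest in their strain for Fasn (794 and 1909 CPM) and Me1 (163 and 260 CPM), yet held 283.3 and 567.6 CPM of Srebf1 and 542 and 1139 CPM of Acacb. Without these 2 libraries the edgeR value of Pnpla3 in Cast was 0.01 (adjusted p = 0.99), against -0.48 with them, and none of the 45 calls made for the 10 genes over the 9 contrasts was lost.

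**Figure D2:**
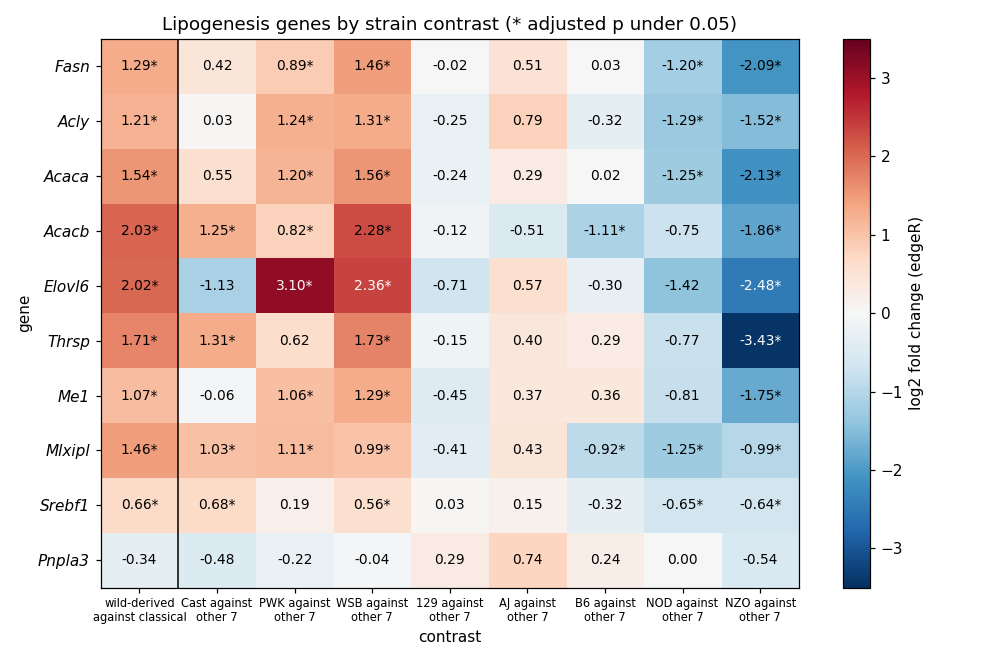
Fitted log2 fold changes (colour and number) of the 10 genes (rows) in 9 contrasts (columns), wild-derived against classical strains first and then each strain against the mean of the other 7; a star marks an adjusted p under 0.05. NZO is the column with 9 starred decreases, WSB and the wild-derived contrast have 9 starred increases each, and the Pnpla3 row has none.

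Read by strain, the set was lowest in NZO and highest in WSB. In NZO 9 of the 10 genes fell and none rose, where 26.6% of all genes tested fell and 27.2% rose (53.9% called in all), and none of the 9 genes had an NZO library above the median of the other libraries. In WSB 9 of 10 rose (background 25.6% higher and 23.7% lower, 49.3% called), with all 8 libraries above the median of the others for Acaca, Acacb, Thrsp, Me1 and Srebf1. WSB also had the lowest median macrophage marker sum (684 CPM, range 403 to 762 CPM), and with the log2 of that sum as a covariate 1 of the 9 WSB calls held, Acacb (1.31), while Fasn was at 0.22, Acaca at 0.27 and Thrsp at 0.44. In PWK 7 rose (background 24.6% higher and 19% lower, 43.6% called), all but Thrsp, Srebf1 and Pnpla3. For each of the 7 called genes, PWK replicates 1, 2, 6 and 7, those with Xist over 300 CPM, lay above all other PWK libraries. Fasn was 12140 to 30860 CPM in them and 3338 to 7029 CPM in the rest, and Acacb 984.5 to 1887 against 198.7 to 302.5 CPM. Without PWK replicate 2, 3 PWK calls were left, and without the libraries rich in liver markers 1 was left (Elovl6, 2.31). None of the 7 held with the macrophage covariate, and limma on the deposited log2 values called 3. In Cast 4 rose, Acacb, Thrsp, Mlxipl and Srebf1 (background 29.6% higher and 26.6% lower, 56.2% called), while Fasn (0.42, adjusted p = 0.368), Acly (0.03), Me1 (-0.06) and Elovl6 (-1.13, adjusted p = 0.146) were not called. In NOD 5 fell, Fasn, Acly, Acaca, Mlxipl and Srebf1 (background 11.8% lower and 14.7% higher, 26.5% called), in B6 2 fell, Acacb and Mlxipl (background 11.7% lower and 14.6% higher, 26.3% called), and by edgeR 0 genes were called in 129 (background 10.8% higher and 7.78% lower, 18.6% called) and 0 in AJ (background 13.4% higher and 9.59% lower, 23% called). In these last 2 strains 0 genes had an unadjusted p under 0.05, and DESeq2 and limma also called 0. Without AJ replicate 3, the highest AJ library for each of the 10 genes, 1 gene was called in AJ.

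NZO libraries also stood apart in macrophage markers. Their sum over 10 markers was 2027 to 6424 CPM (median 4533) in NZO, against a highest value of 2485 CPM in the other 7 strains, and none of the 10 markers was at 0 in more than 1 of the 61 libraries. Within NZO, replicate 8 had the highest macrophage sum (6424 CPM) and the lowest Fasn (161 CPM), but replicate 1, with 5462 CPM of markers, held 3172 CPM of Fasn and replicate 6, with the lowest sum, 2972 CPM. With the log2 macrophage sum as a covariate the NZO values of all 9 genes were above 0, among them Fasn at 1.14 (adjusted p = 0.142), Thrsp at 0.01 (adjusted p = 0.991) and Acly at 2.18 (adjusted p = 0.0123). Since 7 of the 8 NZO libraries lay beyond the range of all other strains, strain and macrophage markers cannot be told apart in NZO. Without NZO replicate 8, as without any other single library, all 9 NZO calls held.

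Averaged over strains, lipogenic transcripts were higher in the wild-derived than in the classical group, though not in every pair of strains. Of the 10 genes 9 rose and none fell (background 33.1% higher and 31.2% lower, 64.4% called). Mean levels were 14380 against 6564 CPM for Fasn (1.29 ± 0.26), 2002 against 932 CPM for Acly (1.21 ± 0.30), 2603 against 988 CPM for Acaca (1.54 ± 0.25) and 1530 against 765 CPM for Me1 (1.07 ± 0.23). Acacb averaged 1353 CPM in wild-derived and 327 CPM in classical strains (2.03 ± 0.20, adjusted p = 1.03e-12, 21 of 23 libraries above the classical median), and Elovl6 738 and 139 CPM (2.02 ± 0.39, 16 of 23 libraries). Among the regulators, Mlxipl averaged 171 and 66.5 CPM (1.46 ± 0.18, 22 of 23 libraries), Srebf1 382 and 244 CPM (0.66 ± 0.11, 20 of 23), and Thrsp 1067 and 405 CPM (1.71 ± 0.27, 18 of 23). Pnpla3 averaged 315 CPM in wild-derived and 409 CPM in classical strains (-0.34, adjusted p = 0.257). Libraries are replicates within strains, so this contrast speaks of these 8 strains, and it shares its libraries with the single-strain contrasts. With brown adipocyte markers as a covariate Acaca, Acacb, Thrsp, Mlxipl and Srebf1 stayed higher while Elovl6 was at 0.08, and with macrophage markers 3 did, Acacb (0.93), Mlxipl (0.52) and Srebf1 (0.35), while Pnpla3 fell (-1.22, adjusted p = 0.00395). Single strains did not all follow the group means. Classical AJ averaged above wild-derived Cast for Fasn (10800 against 10250 CPM), Acly (1814 against 1142 CPM) and Me1 (1134 against 877 CPM). The same held for Elovl6 (277 against 98.9 CPM) and Pnpla3, while Acaca, Acacb, Thrsp, Mlxipl and Srebf1 averaged higher in Cast.

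Over the 28 strain pairs 110 of 280 tests of these genes were called, or about the share of all gene-pair tests (37.1%). Acacb was called in 18 pairs, Mlxipl in 15, Elovl6 in 13, Srebf1 in 12, Fasn, Acaca, Thrsp and Me1 in 11 each and Acly in 8. Of the 10 genes 9 were called between NZO and AJ (background 36.2%), NZO and PWK (55.7%), NZO and WSB (55.9%) and NOD and WSB (44.5%). None was called by edgeR between 129 and AJ (background 9.8%), 129 and B6 (10.4%), 129 and NOD (10.5%) or B6 and NOD (10.3%), where 0, 1, 2 and 3 genes in that order had an unadjusted p under 0.05; these pairs were not tested with other tools. With the strains ranked by mean level, the only neighbours in any gene's order that differed by the test were NOD and NZO for Thrsp (NOD above NZO by 2.33 on the log2 scale, adjusted p = 0.000451). WSB had the highest mean for Fasn, Acly, Acaca, Acacb, Thrsp and Me1, PWK for Elovl6 and Mlxipl, Cast for Srebf1 and AJ for Pnpla3.

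**Figure D3:**
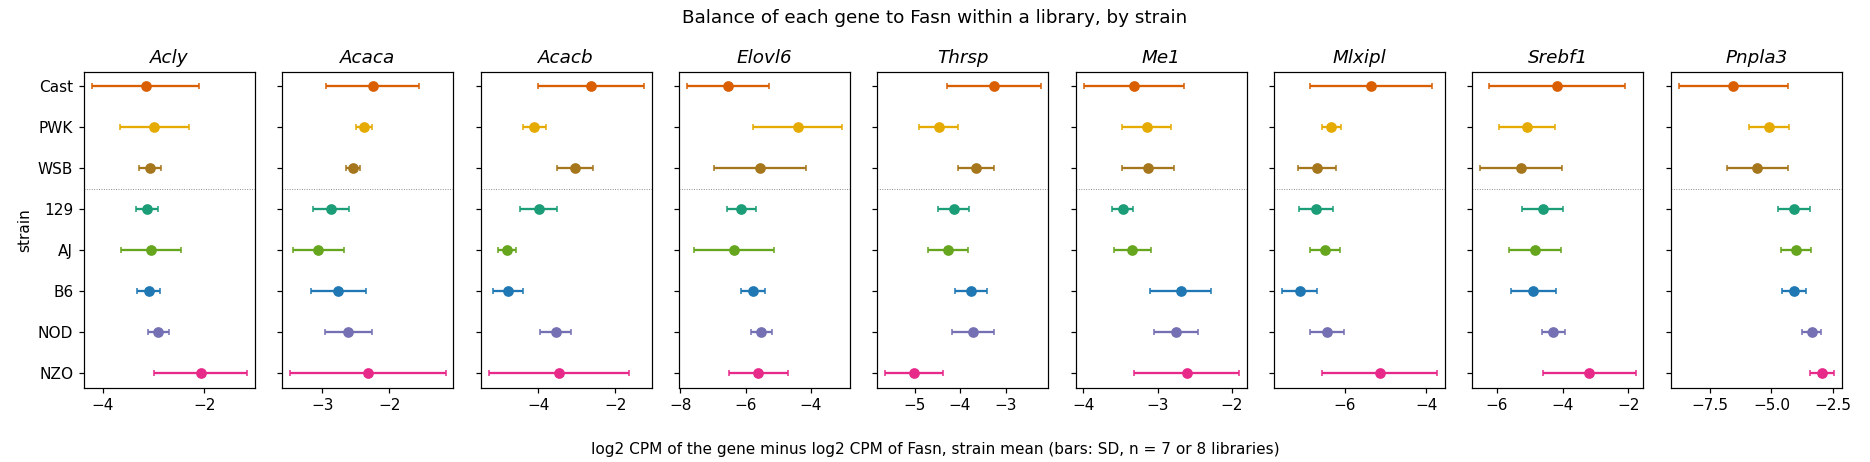
Mean log2 CPM of each gene minus log2 CPM of Fasn in the same library (horizontal) by strain (vertical, wild-derived strains above the dotted line), with bars of 1 SD over 7 or 8 libraries. Pnpla3 lies between -2.96 in NZO and -6.55 in Cast, and Thrsp is at -5.01 in NZO and -3.26 in Cast.

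The balance of each gene to Fasn was compared within libraries, which removes movement that a gene shares with Fasn in equal measure. For a gene that moves less than Fasn, the ratio also carries the strain differences of Fasn with the sign turned. The level of Pnpla3 was itself not called among strains (F-test, adjusted p = 0.41). Within Cast, though, Pnpla3 spread more than Fasn (SD of log2 CPM 3.43 against 1.76), so its Cast ratio also carries its own spread. The balance differed among strains for 8 of the 9 genes (permutation test of the strain labels, 100000 resamples, 2-sided, adjusted over the 9 ratios). Pnpla3 (F = 10.6, adjusted p = 9e-05) and Thrsp (F = 7.9, adjusted p = 9e-05) had the largest F values, and Acaca did not pass (F = 1.97, adjusted p = 0.0569). Pnpla3 relative to Fasn averaged -6.55 ± 2.21 in Cast (SD, n = 7), -5.57 ± 1.25 in WSB and -5.10 ± 0.80 in PWK, against -4.08 ± 0.64 in 129, -4.00 ± 0.60 in AJ, -4.08 ± 0.48 in B6, -3.36 ± 0.38 in NOD and -2.96 ± 0.50 in NZO. Thrsp relative to Fasn had its lowest mean in NZO, -5.01 ± 0.63, against -4.47 ± 0.43 in PWK, the next lowest, and -3.26 ± 1.03 in Cast. The libraries of NZO (-5.51 to -3.57) and PWK (-5.41 to -4.06) overlapped in this ratio, and single strains were not tested against each other. For the other genes the strain means ran from -4.81 (AJ) to -2.64 (Cast) for Acacb, from -6.54 (Cast) to -4.40 (PWK) for Elovl6, from -3.47 (129) to -2.61 (NZO) for Me1, from -7.11 (B6) to -5.14 (NZO) for Mlxipl and from -5.26 (WSB) to -3.19 (NZO) for Srebf1. Acly relative to Fasn was -2.07 ± 0.92 in NZO and between -3.16 and -2.91 in the other strains. The NZO spread of these ratios includes replicate 8, where Acly relative to Fasn was 0.16.

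Across the 61 libraries 8 of the genes were alike in log2 CPM and 2 stood apart. The median Pearson r with the other 9 genes was 0.87 for Acaca, 0.85 for Me1, 0.82 for Fasn and Acly, 0.78 for Thrsp and 0.69 to 0.71 for Acacb, Elovl6 and Mlxipl, but 0.55 for Srebf1 and 0.31 for Pnpla3. These libraries share strains and tissue makeup, and after strain means were subtracted the medians were 0.39 for Srebf1 and 0.51 for Pnpla3, against 0.76 to 0.87 for the other 8. The closest pair was Fasn and Me1 (r = 0.94, and 0.93 after strain means were subtracted). Fasn and Srebf1 had r = 0.52 (0.26 after subtraction), Fasn and Mlxipl r = 0.71 (0.72 after subtraction), and Fasn and Pnpla3 r = 0.48 (0.66 after subtraction). Genes outside the set were ranked by r with predicted genes, clone names and genes of the mitochondrial genome passed over. Among the rest, the gene most like Fasn was the citrate carrier gene Slc25a1 (r = 0.89 over 61 libraries). The gene most like Acly and Acaca was the transketolase gene Tkt of the pentose phosphate pathway (0.91 and 0.94), and the gene most like Acacb the carnitine acetyltransferase gene Crat (0.94). Me1 was closest to Dhrs7 (0.91), with the mitochondrial pyruvate carrier gene Mpc2 next (0.90), Mlxipl to Dnajc11 (0.92) with the pyruvate dehydrogenase gene Pdhb also among its closest (0.92), and Elovl6 to Tmem79 (0.88). Thrsp was closest to the cysteine dioxygenase gene Cdo1 (0.89), Pnpla3 to the prostaglandin E receptor gene Ptger3 (0.92) and Srebf1 to Nf2 (0.80).

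Neighbouring genes were compared because the counting is not stated to use strand, so reads of overlapping neighbours cannot be assigned to one gene with certainty. Fasn lies on chromosome 11 (120805846 to 120824547, minus strand, build GRCm38), where Acly (100476353 to 100528000), Acaca (84129672 to 84401651) and Srebf1 (60199089 to 60222581) also lie, so 4 of the 10 genes are on 1 chromosome. The nearest tested neighbours were taken with predicted genes and clone names passed over. Of these 20, the most alike was Ttc25 beside Acly (r = 0.72), and Ndufc2 beside Thrsp had r = 0.64, Ung beside Acacb 0.59 and Ccdc57 beside Fasn 0.57. The neighbours of Mlxipl, Vps37d (-0.14) and Tbl2 (-0.31), did not follow it.

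**Figure D4:**
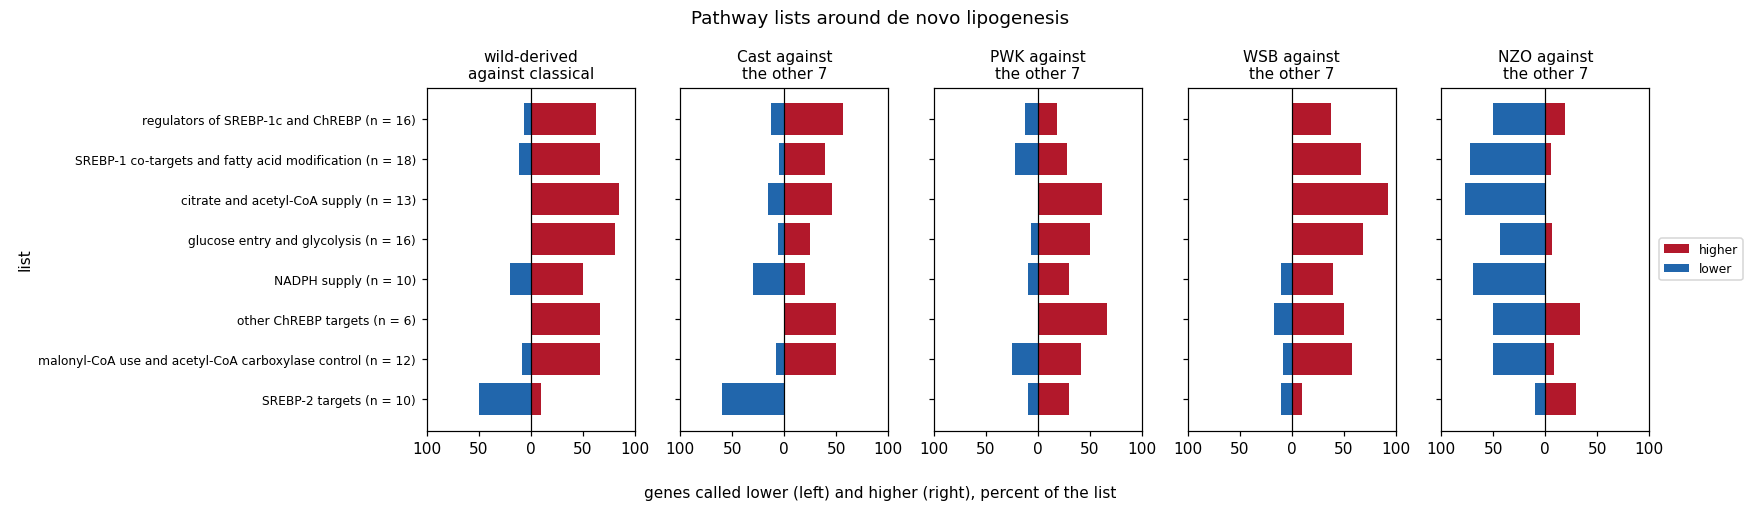
Genes called lower (left, blue) and higher (right, red) in 8 pathway lists, as percent of each list, for the wild-derived contrast and for Cast, PWK, WSB and NZO against the other 7 strains. Citrate and acetyl-CoA supply has bars on 1 side in the wild-derived contrast (11 of 13 higher) and in NZO (10 of 13 lower), while SREBP-2 targets point the other way from it in Cast (6 of 10 lower).

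Lists of genes around the pathway are read against the shares of all genes called, which were 33.1% higher and 31.2% lower in wild-derived strains, 25.6% and 23.7% in WSB, 29.6% and 26.6% in Cast, and 27.2% and 26.6% in NZO. Of 13 genes of citrate and acetyl-CoA supply, 11 rose and none fell in wild-derived strains (median log2 fold change 0.85, against 0.02 over all genes), including the pyruvate dehydrogenase subunit gene Pdhb (1.40 ± 0.19). In WSB 12 of 13 rose (median 0.97, against -0.01 over all genes), led by pyruvate carboxylase Pcx (2921 CPM in WSB against 1257 CPM, 1.30 ± 0.19). In NZO 10 of 13 fell (median -0.74, against -0.02 over all genes), with Pcx (-1.24 ± 0.23) and Pdhb (-1.04 ± 0.30) lowest. Of 16 genes of glucose entry and glycolysis, 13 rose and none fell in wild-derived strains (median 0.57). The insulin-responsive glucose transporter gene Slc2a4 averaged 241 CPM in wild-derived and 127 CPM in classical strains (0.96 ± 0.13). In NZO 7 of the 16 fell (median -0.15) and Hk1 rose (0.40 ± 0.11), and in Cast 4 rose and 1 fell, the 4 being no larger a share than that of all genes.

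NADPH supply outside Me1 was split. In wild-derived strains 5 of 10 rose and 2 fell, where 33.1% of all genes rose and 31.2% fell. Tkt (1.30 ± 0.23) and the mitochondrial malic enzyme gene Me3 (0.78 ± 0.17) were highest and Me2 (-0.33 ± 0.05) and cytosolic isocitrate dehydrogenase Idh1 (-0.26 ± 0.07) lowest. In NZO 7 of 10 fell and none rose, where 26.6% of all genes fell and 27.2% rose. Tkt fell by the most (-1.35 ± 0.38) and glucose-6-phosphate dehydrogenase G6pdx by the least (-0.31 ± 0.13).

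Downstream, 12 of 18 SREBP-1 co-targets and genes of fatty acid modification rose and 2 fell in wild-derived strains (median 0.40). Of all genes 33.1% rose and 31.2% fell in that contrast. Elovl3 (51.1 CPM in wild-derived against 3.59 CPM in classical strains, 4.12 ± 0.48), an elongase that is also on the brown adipocyte marker list, and Scd3 (1.90 ± 0.24) were highest, and Scd2 (-0.75 ± 0.23) lowest. Scd genes are near-identical copies, and their estimates are uncertain. In NZO 13 of the 18 fell, against 26.6% of all genes (median -0.79), and Elovl1 rose (0.55 ± 0.08). In WSB 12 rose, against 25.6% of all genes, and none fell (median 0.56), with the delta-5 desaturase gene Fads1 at 1.23 ± 0.12. In PWK 5 of the 18 rose and 4 fell, where 24.6% of all genes rose and 19% fell. Of 12 genes that use malonyl-CoA or control acetyl-CoA carboxylase, 8 rose in wild-derived strains, among them malonyl-CoA decarboxylase Mlycd (1.13 ± 0.10) and Cpt1b (1.83 ± 0.35), and Cpt1a fell (-0.58 ± 0.10). In NZO Mlycd fell (-0.99 ± 0.16) and Cpt1a rose (0.63 ± 0.13).

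Of 16 regulators of SREBP-1c and ChREBP, 10 rose and 1 fell in wild-derived strains (median 0.22), where 33.1% of all genes rose and 31.2% fell. By strain, 9 rose and 2 fell in Cast, and 6 rose and none fell in WSB. In PWK 3 rose and 2 fell, where 24.6% of all genes rose and 19% fell. The genes named next are from the wild-derived contrast. The coactivator gene Ppargc1b (24.2 against 6.99 CPM, 1.85 ± 0.22) and Lpin1 (0.80 ± 0.11) were highest, and Fbxw7, whose product marks nuclear SREBP for breakdown, was lowest (-0.13 ± 0.03). In NZO 8 of the 16 fell and 3 rose, where 26.6% of all genes fell and 27.2% rose. Lpin1 changed by -0.997 ± 0.168 and Insig1, which retains SREBP in the endoplasmic reticulum, by -0.63 ± 0.20, while Mbtps2, the protease gene that releases SREBP, rose (0.38 ± 0.06). Of 6 other ChREBP targets 4 rose and none fell in wild-derived strains, Rgs16 (1.15 ± 0.19) and Gpd1 (0.85 ± 0.19) by the most. In NZO 3 fell and 2 rose.

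SREBP-2 targets, the genes of cholesterol synthesis and uptake, did not share this direction in the wild-derived contrast. There 1 of 10 rose and 5 fell (median -0.19, against 0.02 over all genes). The 3 wild-derived strains differed. In PWK 3 rose and 1 fell (median 0.11), where 24.6% of all genes rose and 19% fell, and in WSB 1 rose and 1 fell (median -0.05). In Cast 6 of 10 fell and none rose (median -0.52, against 0.02 over all genes), with Insig1 (-1.10 ± 0.22) among the lowest, although Srebf1, Thrsp, Acacb and Mlxipl rose there. In NZO 3 of 10 rose, near the share of all genes, and 1 fell (median -0.11). Insig1 is on this list and on the list of regulators.

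**Figure D5:**
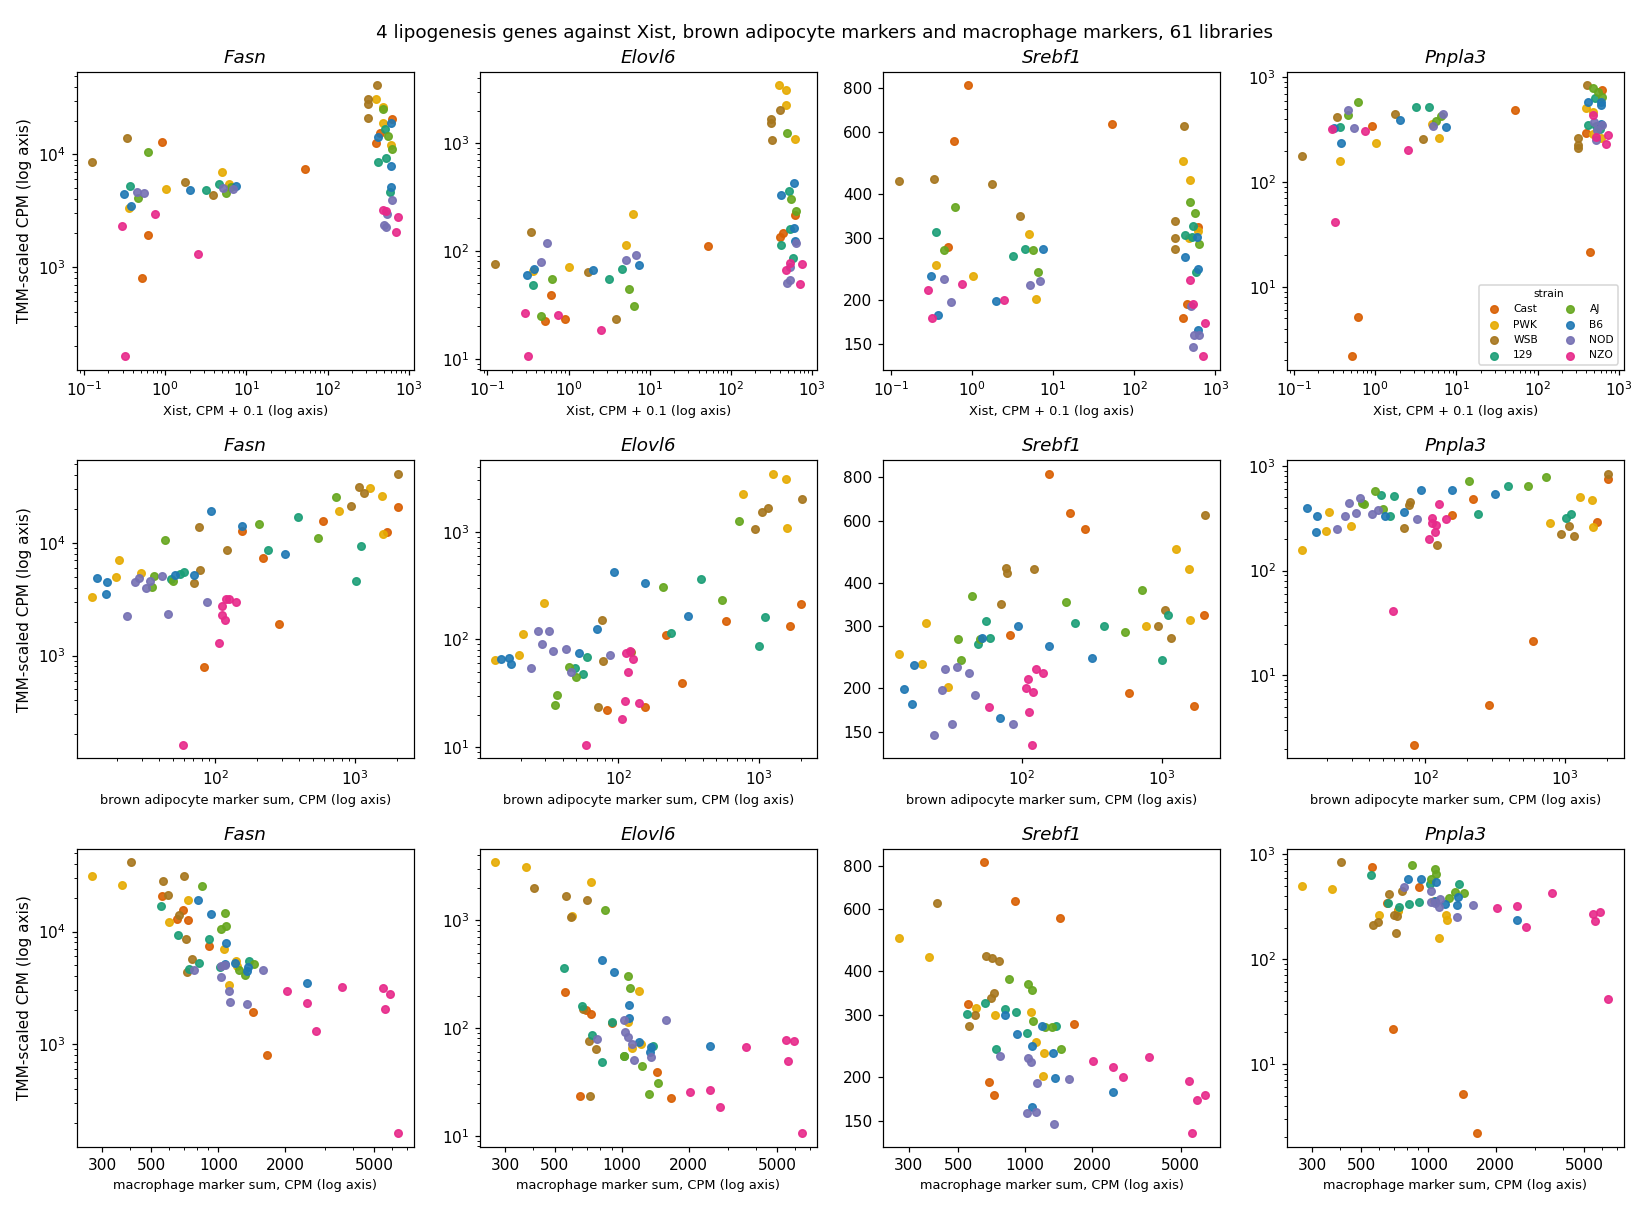
TMM-scaled CPM of Fasn, Elovl6, Srebf1 and Pnpla3 (vertical, log axis) against Xist (top row), summed brown adipocyte markers (middle row) and summed macrophage markers (bottom row), all in CPM on log axes, with 1 point per library coloured by strain. Points with Xist over 300 CPM include the highest Elovl6 libraries of PWK and WSB, and NZO occupies the right of the bottom row from 2027 CPM upward.

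Beside Xist, the genes behaved differently by strain. The slope on log2 Xist differed among strains for 8 of the 10 genes (edgeR, adjusted p under 0.05, background 43.7%), and not for Fasn (adjusted p = 0.0581) or Pnpla3 (adjusted p = 0.776). For Elovl6 the slope was 0.63 log2 units per doubling of Xist in PWK, 0.53 in WSB, 0.49 in AJ, 0.20 in NZO and -0.04 in NOD. For Acacb it was 0.34 in PWK and -0.12 in NZO, and for Srebf1 -0.14 in Cast and 0.08 in PWK. NOD had a negative slope for all 10 genes: NOD replicates 1 to 4, with Xist of 494 to 630 CPM, held 2262 to 3966 CPM of Fasn, and replicates 5 to 8, with Xist under 10 CPM, 4522 to 5064 CPM. In WSB the 4 libraries with Xist over 300 CPM held 21110 to 41050 CPM of Fasn and the other 4 held 4396 to 13970 CPM. With log2 Xist as a covariate in all strains, 41 of the 45 calls of single genes held. In 6 strains every library with Xist over 300 CPM had a higher brown adipocyte marker sum than every other library of its strain: Cast (587 to 2010 against 82.8 to 284 CPM), PWK (773 to 1589 against 13.2 to 29.5 CPM), WSB (939 to 2034 against 70.9 to 122 CPM), 129 (238 to 1104 against 48.6 to 59.5 CPM), AJ (207 to 727 against 35.2 to 50.1 CPM) and B6 (70.3 to 315 against 14.4 to 51.9 CPM). The sums overlapped in NZO (113 to 126 against 58.7 to 141 CPM) and in NOD (23.6 to 87.1 against 26.8 to 42 CPM), with Ucp1 detected in all 61 libraries (0.084 to 1438 CPM). What part these markers had in the strain differences was not tested beyond the covariate fits.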

How the data were processed

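The authors deposited expected counts (estimated reads per gene, not scaled) for 21169 genes in 61 libraries, and the same libraries as variance-stabilised log2 values. The submitters' processing notes name DESeq2, with no version, and build GRCm38. Of the count values 21.1% were not whole within 1e-06. The aligner, the counting tool and any use of strand are not given in the sources used here.

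Counts were rounded, filtered with filterByExpr by strain (18603 genes kept, 2566 set aside), given TMM scaling factors, and modelled with edgeR 4.0.16 (R 4.3.3), 1 mean per strain and a robust quasi-likelihood dispersion. Every strain was set against the other 7, whose means had equal weight, wild-derived against classical strains, and all 28 pairs of strains against each other. Calls required an adjusted p (Benjamini-Hochberg, all genes of the contrast) under 0.05, and tests were 2-sided. For the 10 genes CPM were scaled by TMM, logarithms used a prior count of 2, and levels per kb used exon lengths from a GENCODE annotation of GRCm38. Marker sums and Xist were divided by the library total without TMM, and log2 Xist was taken after adding 1 CPM. Fold changes compare fitted strain means averaged as logarithms, so they can differ from ratios of mean CPM.

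The alternatives tried were DESeq2 1.42.0, limma 3.58.1 on the deposited log2 values, RLE in place of TMM, fits with no filter or with genes of 5 or more mean CPM, the replicate number as a block, Xist as a covariate, a prior count of 0.5 for ratios, each library left out, and fits without libraries rich in liver, genital duct or muscle markers. The fit without Cast replicates 5 and 6, the covariates of brown adipocyte and macrophage markers and the Xist slopes by strain were chosen after seeing the data. The genes, lists and tests were chosen with earlier results of these data known. All 10 genes were tested in every comparison and the text gives the values that carry each, and it names per list and contrast genes among the 2 highest and 2 lowest called, per gene those most like it over the libraries, its neighbours and its paralog. Simulated data for NZO against the other 7 strains (18385 genes) held 99 genes with a true log2 change of 1 and 98 with a change of 2. Recovery was 77.8% and 95.9% in that order, and false calls made up 5%. In the real NZO contrast 53.9% of genes were called, so the simulation had far fewer changed genes. Recovery was not worked out for the 10 genes, whose standard errors in NZO ran from 0.16 (Srebf1) to 0.70 (Elovl6). These rates are therefore not the power or the error rate for them. Some genes of the lists are counted but not reported here by name.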

Additional observations from a re-analysis of the deposited data

Results flagged for a closer look

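In 80 sets of libraries (10 genes in 8 strains) the highest or lowest library was set against the rest of its strain with Dixon's criterion. It marks about 1 set in 20 by chance where values are normally distributed. Here it was applied to CPM and not to logarithms, which favours marks on high libraries, and the genes moved together. That rate is therefore no measure for these sets. The criterion marked 13 sets, and in each the marked library was the highest of its strain. AJ replicate 3 was marked for 7 genes: Acly (6873 CPM, other AJ libraries 353 to 2194 CPM) and Acaca (4938 CPM, others 427 to 2139 CPM), Acacb (1050 CPM, others 174 to 422 CPM), Elovl6 (1245 CPM, others 24.7 to 306 CPM), Thrsp (1931 CPM, others 201 to 894 CPM), Me1 (3382 CPM, others 426 to 1347 CPM) and Mlxipl (304.2 CPM, others 56.1 to 139 CPM). This library also held 1531 CPM of summed muscle markers and 727 CPM of brown adipocyte markers.

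In 129, replicate 2 was marked for Fasn (16900 CPM, others 4600 to 9359 CPM), Acly (2522 CPM, others 438 to 1094 CPM) and Elovl6 (362.9 CPM, others 48.1 to 161 CPM). In B6, replicate 2 was marked for Me1 (2349 CPM, others 716 to 1482 CPM). In WSB, replicate 9 was marked for Pnpla3 (836.4 CPM, others 177 to 450 CPM) and Srebf1 (624.5 CPM, others 279 to 441 CPM).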

How the results depend on the processing

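Counts of called genes held within 1.5 times under RLE size factors, both other filters, and the fit without Cast replicates 5 and 6. For NOD (5 called) DESeq2 gave 8, limma 2, Xist as a covariate 3, brown adipocyte markers as a covariate 3 (Mlxipl and Srebf1 lower, Elovl6 higher) and the replicate block 3. For PWK (7 called) limma gave 3, brown markers 4, macrophage markers 0 and the fit without libraries rich in liver markers 1. For B6 (2 called) the fit without libraries rich in genital duct markers gave 0 and brown markers 4 (Acaca, Elovl6, Thrsp and Me1, all higher, and neither of the 2 genes called lower before), for AJ (0 called) the fit without libraries rich in muscle markers 1 and brown markers 1 (Acacb, lower), and for 129 (0 called) brown markers 1 (Mlxipl) and macrophage markers 3 (Acaca, Me1 and Mlxipl), all lower. For NZO (9 called) macrophage markers gave 4, all higher, for WSB (9 called) 1, and for wild-derived strains (9 called) 4 (3 higher and Pnpla3 lower), while brown markers gave 5 there. The cause was not tested. With the macrophage covariate these calls changed sign: in NZO Fasn (1.14), Acly (2.18), Acaca (1.38), Acacb (0.65), Elovl6 (1.99), Thrsp (0.013), Me1 (1.22), Mlxipl (1.11) and Srebf1 (0.074), in PWK Fasn (-0.27), Acly (-0.25), Acaca (-0.019), Acacb (-0.26) and Me1 (-0.15), in WSB Acly (-0.093), and in wild-derived strains Fasn (-0.20), Acly (-0.53) and Me1 (-0.34). With the brown covariate Acly in NOD changed sign (0.025). With 1 library left out, calls ranged from 103 to 118 of the 280 pair tests (110 called), from 7 to 9 ratios (8 called), 0 to 0 in 129, 0 to 1 in AJ, 2 to 2 in B6, 3 to 4 in Cast, 3 to 5 in NOD, 9 to 9 in NZO, 3 to 7 in PWK, 8 to 9 in WSB, 9 to 9 in the F-test and 9 to 9 in the wild-derived contrast. Libraries with the same replicate number in different strains deviated together weakly, though more than others (median r = 0.11, range -0.44 to 0.56, n = 186 pairs, against -0.02 for different numbers, n = 1441). What the numbers stand for is not given in the labels. In 129, B6, NOD and NZO replicates 1 to 4 were the libraries with Xist over 300 CPM, while in PWK and WSB higher numbers were among them too. The replicate block and the Xist covariate thus overlap in part. The block that gave 3 NOD calls moved no other count by over 1.5 times. Of 45 single calls the block kept 42, Xist 41, limma 37, brown markers 31 and macrophage markers 14. The lowest count of any of the 10 genes in any library was 109 (Pnpla3 in Cast replicate 5), so the spread between libraries, and not depth, limits these comparisons.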
